A study of Mus musculus with 6 samples.

Results

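The 10 genes described here encode cell-surface and large matrix proteoglycans, together with 1 enzyme that edits their sugar chains. They are Hspg2 and Vcan of the matrix, the syndecans Sdc1, Sdc2, Sdc3 and Sdc4, the glypicans Gpc3, Gpc4 and Gpc6, and the sulfatase gene Sulf1. They were chosen by gene name, with earlier results of these data known, from the 34745 genes of the deposited table, where each has 1 row. The RNA-seq libraries were made from LSECs, the sinusoidal endothelial cells of the liver, from mice given a liver toxin. The ECKO libraries have the genotype label Tgfbr2 ECKO, read here as an endothelial-cell knockout of the type II receptor for TGF-beta, and the treatment label CCl4 (carbon tetrachloride). The WT libraries have the genotype label Tgfbr2f/f, the floxed allele, and the same treatment label. In both groups CCl4, a hepatotoxin, was injected into the peritoneum 2 times a week over 6 weeks, and each group had 3 libraries. The Cre driver, the deleted part of Tgfbr2, the animals' age and the way the LSECs were isolated are not stated in the labels, and all samples analysed here had CCl4. The labels do not say that each library came from its own mouse, so p-values measure the spread between these libraries, which may be technical.

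Proteoglycans are core proteins that carry long sulfated sugar chains, heparan sulfate or chondroitin sulfate, through which they bind growth factors, chemokines, lipoproteins and other matrix molecules. Syndecans span the cell membrane, glypicans are held to it by a lipid anchor, and perlecan and versican are secreted into the matrix. In the liver, heparan sulfate proteoglycans line the sinusoidal surface and the space of Disse, and versican is a component of fibrotic matrix.

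Library totals ranged from 17171850 to 18671217 counts in ECKO and from 17632271 to 25062755 counts in WT. Transcripts of the mitochondrial genome took 19.7% to 32.4% of counts in ECKO and 11.5% to 23.5% in WT. The targeted gene, Tgfbr2, held 498, 487 and 511 CPM (counts scaled to a common library size, here adjusted between libraries by the TMM method) in ECKO replicates 1 to 3 and 387, 442 and 452 CPM in WT replicates 1 to 3. On this scale every ECKO library lay above every WT library, as in 15.7% of all genes tested, so no fall of Tgfbr2 was seen. The log2 fold change of 0.22 did not pass (SE 0.10, adjusted p = 0.228 by edgeR's quasi-likelihood test). On the deposited FPKM (values per gene length and library total) the groups overlapped. Tgfbr2 was at 86.6, 102 and 99.8 FPKM in ECKO replicates 1 to 3 and 77.2, 107 and 110 FPKM in WT replicates 1 to 3. A transcript that lacks the deleted part could still be counted, so these values do not check the deletion, and ECKO means throughout the libraries labelled so. All 15 sinusoidal endothelial markers were detected, and their summed level was 34430 to 40660 CPM in ECKO and 31200 to 35660 CPM in WT, with overlap. Stellate cell and fibroblast markers were also present, with a sum over 21 genes of 1164 to 1733 CPM in ECKO and 2261 to 3429 CPM in WT, without overlap. In RNA from a bulk preparation, fewer cells of a type and less RNA per cell cannot be told apart.

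One glypican gene, Gpc4, fell in the libraries labelled ECKO, and the other 9 genes did not pass the test. Gpc4 averaged 20.5 ± 5.06 CPM in ECKO and 37.5 ± 1.25 CPM in WT (SD, n = 3 each), or -0.87 on the log2 fold scale (SE 0.18, adjusted p = 0.0432 by edgeR's quasi-likelihood test). Among all 13692 genes tested, 4.03% passed, 2.79% lower and 1.24% higher, and a single call among 10 genes says nothing about them as a group. The log2 fold change of ECKO over WT was negative for 9 of the 10 genes and positive for Sdc1, with a range from -2.28 to 0.45. Its median was -0.84 over the 10 genes, beside 0.01 over all genes tested. In 7 of the 10 genes every ECKO library lay below every WT library in CPM, which held for 15.2% of all genes tested, and in 0 of the 10 did every ECKO library lie above, which held for 15.7%. The unadjusted edgeR p was under 0.05 for 8 genes on the lower side and for Sdc1 on the higher side, beside 13.1% lower and 10.4% higher of all genes. DESeq2 called 7 lower (6.71% of all its genes) and 0 higher, and limma-voom called 1 lower (1.46% of all its genes) and 0 higher. All 10 passed the filter on low counts, Vcan only through WT, with 2 libraries over the minimum of 0.545 CPM in ECKO and 3 in WT.

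**Figure D1:**
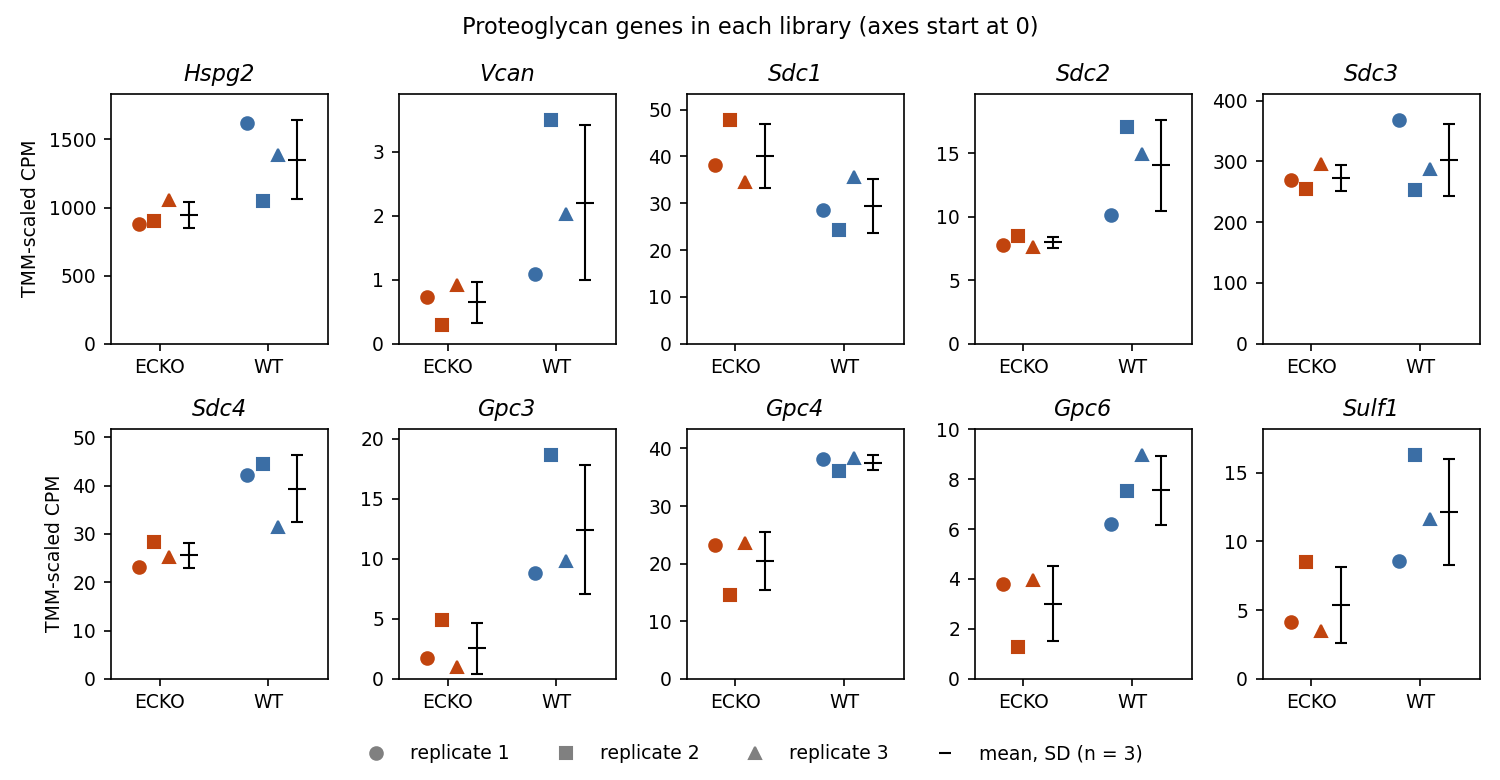
TMM-scaled CPM of each gene (vertical axes, each starting at 0) in the 3 ECKO and 3 WT libraries, with 1 symbol per replicate number and the mean with SD beside them. The groups stand apart for Vcan, Sdc2, Sdc4, Gpc3, Gpc4, Gpc6 and, narrowly, Sulf1, and they overlap for Hspg2, Sdc1 and Sdc3.

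**Figure D2:**
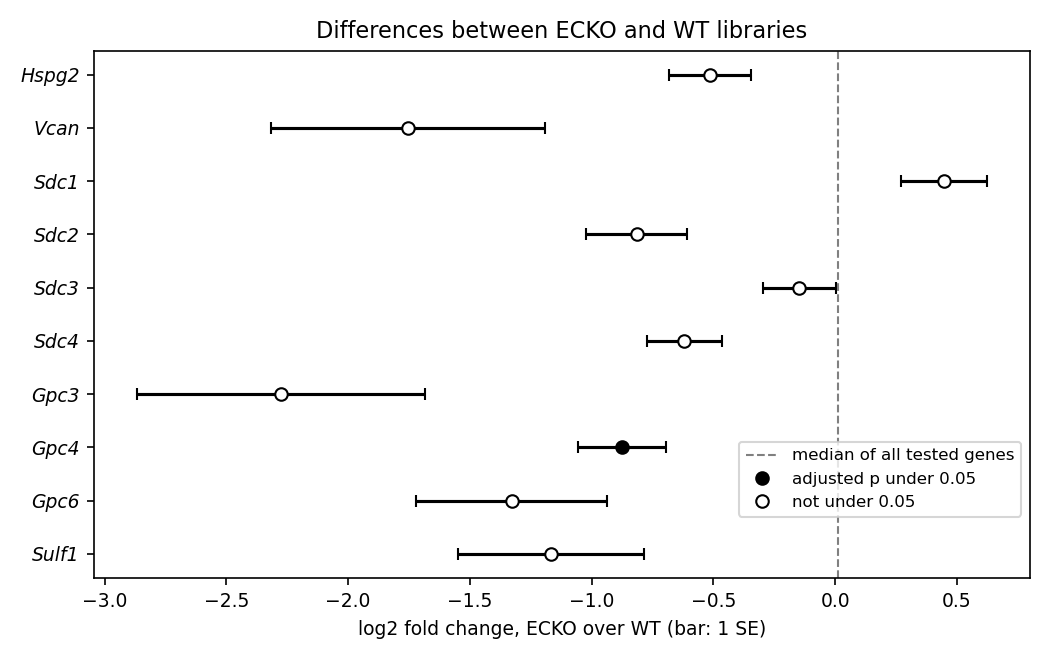
Log2 fold change of ECKO over WT for each gene (horizontal axis) with a bar of 1 SE on each side, and the median of all tested genes as a dashed line at 0.01. The filled point, Gpc4 at -0.87, is the gene whose adjusted p was under 0.05, and Sdc1 at 0.45 is the gene on the positive side.

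Perlecan (Hspg2, ENSMUSG00000028763, chromosome 4, 137468769 to 137570630 on mm10/GRCm38, plus strand) is the large heparan sulfate proteoglycan of basement membranes. Its level was 882, 902 and 1056 CPM in ECKO replicates 1 to 3 and 1622, 1048 and 1385 CPM in WT replicates 1 to 3. ECKO replicate 3 lay just above WT replicate 2, so the groups overlapped, and WT replicate 1 was the highest. Its log2 fold change was -0.51 (SE 0.17) and did not pass (edgeR adjusted p = 0.128). It passed when libraries were scaled by their totals alone, at -0.73 (edgeR adjusted p = 0.0237), where the all-gene median was -0.22.

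Versican (Vcan, ENSMUSG00000021614, chromosome 13, 89655312 to 89742509, minus strand) is the large chondroitin sulfate proteoglycan that binds hyaluronan. It was scarce in every library, with 11, 5 and 16 counts in ECKO replicates 1 to 3 and 26, 71 and 49 counts in WT replicates 1 to 3. These counts correspond to 0.732, 0.291 and 0.917 CPM in ECKO and to 1.09, 3.49 and 2.03 CPM in WT. No library of 1 group reached into the range of the other, yet the WT libraries differed 3.21-fold among themselves. Its log2 fold change of -1.75 (SE 0.56) did not pass (edgeR adjusted p = 0.120), while DESeq2 gave an adjusted p of 0.0438. Gene-level counts do not separate the splice forms of versican.

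Among the syndecans, Sdc3 was the most abundant per gene length and had the fold change nearest to none of the 10 genes. Sdc3 (ENSMUSG00000025743, chromosome 4, 130792537 to 130826319, plus strand), best known from neural tissue, held 269, 254 and 296 CPM in ECKO replicates 1 to 3 and 368, 253 and 287 CPM in WT replicates 1 to 3. WT replicate 1 was the highest of the 6 and WT replicate 2 the lowest, so the ECKO values lay inside the WT range. For Sdc3 the log2 fold change was -0.15 (SE 0.15, edgeR adjusted p = 0.582), and without WT replicate 1 it was 0.02 (adjusted p = 0.922). The annotation places exons of 2 antisense genes, Gm12970 and Gm26716, over exons of Sdc3, and the table gives both 0 counts in all libraries.

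Syndecan 4 (Sdc4, ENSMUSG00000017009, chromosome 2, 164424247 to 164443887, minus strand), a component of focal adhesions, held 23.2, 28.4 and 25.2 CPM in ECKO replicates 1 to 3. WT replicates 1 to 3 held 42.2, 44.4 and 31.5 CPM, all above the highest ECKO library. Its log2 fold change was -0.62 (SE 0.15, edgeR adjusted p = 0.0672). Sdc2 (ENSMUSG00000022261, chromosome 15, 32920723 to 33034730, plus strand), a syndecan of mesenchymal and endothelial cells, held 7.79, 8.48 and 7.63 CPM in ECKO and 10.1, 17.0 and 14.9 CPM in WT. The ECKO libraries of Sdc2 lay close together, with a coefficient of variation of 5.71% against 25.3% in WT, and WT replicate 1 was the WT library nearest to them. Its log2 fold change of -0.81 (SE 0.21) did not pass (edgeR adjusted p = 0.0711), but it passed without WT replicate 1, at -1.0 (edgeR adjusted p = 0.0146). DESeq2 called both Sdc4 and Sdc2 lower (adjusted p = 0.0145 and 0.0128).

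Syndecan 1 (Sdc1, ENSMUSG00000020592, chromosome 12, 8771323 to 8793715, plus strand) is the syndecan of epithelial cells, hepatocytes and plasma cells. It was the 1 member with a positive fold change, at 38.2, 47.7 and 34.5 CPM in ECKO replicates 1 to 3 and 28.5, 24.2 and 35.5 CPM in WT replicates 1 to 3. ECKO replicate 3 lay below WT replicate 3, so the groups overlapped. The log2 fold change of 0.45 (SE 0.18) did not pass (edgeR adjusted p = 0.179), and it did not pass under any of the other settings run. The summed level of 13 hepatocyte markers was 1671, 2142 and 1089 CPM in ECKO replicates 1 to 3 and 1953, 1100 and 1245 CPM in WT replicates 1 to 3. Within ECKO, replicate 2 was highest and replicate 3 lowest for both Sdc1 and that sum, while within WT their orders differed. The sum of 8 B and plasma cell markers, 8.37 to 16.8 CPM in ECKO and 25.8 to 57.4 CPM in WT, ran the other way between the groups. The part of either cell type in the Sdc1 values was not tested.

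Because Sdc4 and Sdc1 differed in sign, their start regions are shown side by side as RefSeq gives them on GRCm38.p6, from 250 bases before to 50 bases after the start. The Sdc1 region is chr12:8771146-8771445 on the plus strand and the Sdc4 region is chr2:164443139-164443438 on the minus strand. Capitals mark matches to GGGCGG (the GC box) and TATAA (the core of the TATA box) on either strand, where neighbouring matches can run together.
Sdc1: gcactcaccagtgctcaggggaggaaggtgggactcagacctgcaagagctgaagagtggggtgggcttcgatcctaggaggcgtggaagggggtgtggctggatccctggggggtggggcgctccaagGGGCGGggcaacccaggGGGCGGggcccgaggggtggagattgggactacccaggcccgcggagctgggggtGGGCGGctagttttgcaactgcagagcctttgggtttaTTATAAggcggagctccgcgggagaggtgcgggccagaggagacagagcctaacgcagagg
Sdc4: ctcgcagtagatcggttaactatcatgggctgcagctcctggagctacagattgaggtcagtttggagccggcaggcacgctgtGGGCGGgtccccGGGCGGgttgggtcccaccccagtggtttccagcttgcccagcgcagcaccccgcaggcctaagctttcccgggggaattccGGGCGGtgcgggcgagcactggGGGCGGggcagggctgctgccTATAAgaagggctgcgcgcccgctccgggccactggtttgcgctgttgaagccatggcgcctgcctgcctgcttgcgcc
Both hold each motif, with 3 GC boxes in Sdc1 and 4 in Sdc4. The GC box stood in 35.7% of all 32851 start regions of this length and TATAA in 24.9%. These matches describe the letters and not bound sites.

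Shares within a library do not depend on how libraries are scaled to each other. On FPKM (the deposited values per gene length and library total), Sdc4 made up 14.7%, 17.6% and 14.9% of the summed syndecan level in ECKO replicates 1 to 3. In WT replicates 1 to 3 it made up 19.6%, 25.7% and 17.7%. Every ECKO share of Sdc4 lay below every WT share, by 5.27 percentage points on average (two-sided exact permutation p = 0.1, the smallest that 3 libraries against 3 can give, and 0.35 after Benjamini-Hochberg adjustment over 7 shares). Sdc1 took 10.9%, 13.2% and 9.15% in ECKO and 5.94%, 6.27% and 8.96% in WT, again without overlap (exact permutation p = 0.1, adjusted 0.35), though on raw counts the Sdc1 shares overlapped (exact permutation p = 0.2). Sdc3 supplied most of the syndecan level in both groups, at 69.4 ± 3.80% in ECKO and 66.0 ± 5.22% in WT (SD, n = 3 each, exact permutation p = 0.6). Sdc2 supplied 3.79 ± 0.286% in ECKO and 5.92 ± 2.05% in WT (exact permutation p = 0.3).

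**Figure D3:**
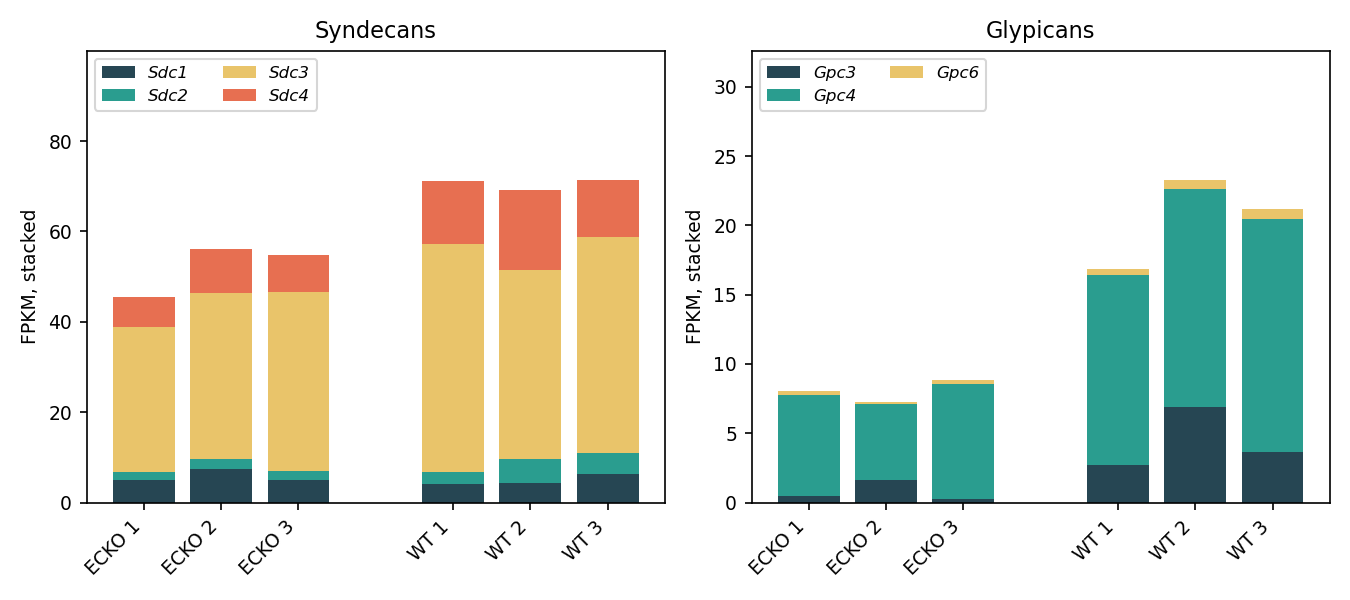
Stacked deposited FPKM of the 4 syndecan genes (left) and 3 glypican genes (right) in each library, ECKO replicates before WT replicates. The syndecan stacks reach 45.5 to 56.2 FPKM in ECKO and 69.3 to 71.4 FPKM in WT, mostly Sdc3, and the glypican stacks reach 7.22 to 8.85 FPKM in ECKO and 16.9 to 23.3 FPKM in WT, mostly Gpc4.

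The 3 glypican genes all had every ECKO library below every WT library, and Gpc4 was the 1 that passed. Gpc4 (ENSMUSG00000031119, chromosome X, 52053021 to 52165252, minus strand), a glypican that modulates growth factor signalling at the cell surface, held 23.3, 14.6 and 23.5 CPM in ECKO replicates 1 to 3. WT replicates 1 to 3 held 38.2, 36.1 and 38.4 CPM, all well above the ECKO libraries. The coefficient of variation was 24.7% in ECKO and 3.33% in WT. The call was lost in 5 of the 6 fits that left out 1 library. Without ECKO replicates 1 and 3 the edgeR adjusted p was 0.105 and 0.0886, and without WT replicates 1, 2 and 3 in turn it was 0.0559, 0.0837 and 0.141. Without ECKO replicate 2, the lowest of the 6, Gpc4 still passed, at a log2 fold change of -0.68 (edgeR adjusted p = 0.0359). The direction was negative in all of these fits.

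Gpc3 (ENSMUSG00000055653, chromosome X, 52272426 to 52613950, minus strand) is known as a fetal liver glypican and a marker of liver cancer. It had the largest log2 fold change of the 10 genes in absolute size, at -2.28 (SE 0.59), and did not pass (edgeR adjusted p = 0.0828). Its counts were 26, 85 and 17 in ECKO replicates 1 to 3 and 211, 379 and 238 in WT replicates 1 to 3, or 1.73, 4.94 and 0.975 CPM in ECKO and 8.82, 18.6 and 9.86 CPM in WT. The ECKO libraries spread 5.07-fold, with replicate 2 well above the other two. Without ECKO replicate 2 the log2 fold change was -3.2 and passed (edgeR adjusted p = 0.0413), and DESeq2 on all libraries gave an adjusted p of 4.38e-04. Gpc6 (ENSMUSG00000058571, chromosome 14, 116925297 to 117979529, plus strand), a glypican with a role in skeletal growth, held 3.79, 1.28 and 3.96 CPM in ECKO and 6.19, 7.52 and 8.95 CPM in WT. ECKO replicate 2, which was highest for Gpc3, was lowest for Gpc6. The log2 fold change of Gpc6 was -1.33 (SE 0.39, edgeR adjusted p = 0.103), and DESeq2 gave an adjusted p of 0.0144.

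Gpc4 and Gpc3 are neighbours on chromosome X, on the same strand and 107.2 kb apart, with 0 annotated genes between them in GENCODE M21. Their RefSeq start regions on GRCm38.p6 are chrX:52164874-52165173 (Gpc4) and chrX:52613925-52614224 (Gpc3), both on the minus strand. They are printed because this pair includes the gene that passed and the gene with the largest fold change, with the same motifs in capitals as above.
Gpc4: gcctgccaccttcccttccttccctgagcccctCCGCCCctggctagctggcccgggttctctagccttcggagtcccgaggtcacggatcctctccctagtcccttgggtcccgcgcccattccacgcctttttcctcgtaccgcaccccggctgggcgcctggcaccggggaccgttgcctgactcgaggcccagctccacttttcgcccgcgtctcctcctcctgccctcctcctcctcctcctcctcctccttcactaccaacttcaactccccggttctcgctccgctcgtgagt
Gpc3: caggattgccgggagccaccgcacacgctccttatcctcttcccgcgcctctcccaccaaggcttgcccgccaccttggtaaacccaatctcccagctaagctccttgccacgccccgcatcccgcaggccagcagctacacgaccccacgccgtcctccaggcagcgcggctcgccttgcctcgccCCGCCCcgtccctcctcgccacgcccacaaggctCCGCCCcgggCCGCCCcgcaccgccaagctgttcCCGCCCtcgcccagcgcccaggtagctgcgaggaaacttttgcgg
The Gpc4 region holds 1 GC box match and the Gpc3 region 4, all read from the opposite strand, and neither holds TATAA. Of the 10 genes, 7 had a start region in the table (Sdc2, Gpc6 and Sulf1 are not in it), and all 7 held GGGCGG. The AP-1 motif TGANTCA stood in 0 of the 7 and in 7.81% of all regions, and CAGACA, the letters of the SMAD-binding CAGA box, in 1 of the 7 (Sdc3) and in 21.0% of all regions. The G and C content of the 7 regions was 61.0% to 77.7%, beside a median of 52.7% over all regions.

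Within the summed glypican FPKM, Gpc4 supplied 91.3%, 76.6% and 93.6% in ECKO replicates 1 to 3 and 81.4%, 67.5% and 79.1% in WT replicates 1 to 3. The shares overlapped, since ECKO replicate 2 lay below WT replicates 1 and 3 (difference of 11.2 percentage points, exact permutation p = 0.3, adjusted 0.42 over 7 shares). Gpc3 supplied 10.4 ± 10.2% in ECKO and 21.0 ± 7.55% in WT (SD, n = 3 each, exact permutation p = 0.3), and Gpc6 supplied 2.42 ± 0.971% in ECKO and 2.96 ± 0.547% in WT (exact permutation p = 0.6).

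Sulf1 (ENSMUSG00000016918, chromosome 1, 12692277 to 12861192, plus strand) encodes a secreted endosulfatase that removes sulfate groups from heparan sulfate at the cell surface. It held 4.13, 8.54 and 3.50 CPM in ECKO replicates 1 to 3 and 8.57, 16.3 and 11.6 CPM in WT replicates 1 to 3. ECKO replicate 2 and WT replicate 1 were almost level, and on the FPKM scale they crossed, at 0.530 in that ECKO library and 0.506 in that WT library. Sulf1 had a log2 fold change of -1.17 (SE 0.38, edgeR adjusted p = 0.128), and DESeq2 gave an adjusted p of 0.0260. As with Gpc3, replicate 2 was the highest library in both groups.

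On FPKM, which allows levels of different genes to be set side by side, Hspg2 led in both groups, at 52.3 ± 7.68 in ECKO and 87.0 ± 12.8 in WT (SD, n = 3 each). Sdc3 came next, at 36.1 ± 3.78 FPKM in ECKO and 46.6 ± 4.33 FPKM in WT, and neither gene's libraries overlapped the gene after it within a group. In ECKO, Sdc4 (8.24 ± 1.58 FPKM), Gpc4 (7.05 ± 1.39 FPKM) and Sdc1 (5.79 ± 1.41 FPKM) followed, each overlapping the next. In WT, Gpc4 (15.4 ± 1.54 FPKM) and Sdc4 (14.8 ± 2.66 FPKM) overlapped and both stood above Sdc1 (4.99 ± 1.22 FPKM). Gpc3 (0.784 ± 0.707 FPKM in ECKO and 4.44 ± 2.21 FPKM in WT) overlapped Sulf1 in ECKO and both Sdc1 and Sdc2 in WT. Sulf1 (0.315 ± 0.186 FPKM in ECKO and 0.834 ± 0.328 FPKM in WT) overlapped Gpc6 in both groups, and Vcan was lowest at 0.0293 ± 0.0142 FPKM in ECKO and 0.124 ± 0.0749 FPKM in WT. The gene lengths behind these FPKM values run from 2.65 kb (Gpc4) to 20 kb (Vcan), and a length longer than the transcript in use lowers the FPKM. On FPKM, 8 of the 10 genes had every ECKO library below every WT library, beside 27.7% of all genes tested. Sulf1 no longer stood apart on this scale, whereas Hspg2 and Sdc3 did. Hspg2 was at 43.9, 54.1 and 59.0 FPKM in ECKO replicates 1 to 3 and 92.6, 72.4 and 96.0 FPKM in WT replicates 1 to 3. Sdc3 was at 32.1, 36.6 and 39.6 FPKM in ECKO and 50.3, 41.9 and 47.7 FPKM in WT. FPKM carries no TMM scaling, and the libraries' TMM factors were 0.833 to 1.00 in ECKO and 0.955 to 1.16 in WT.

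The 10 genes did not share 1 order of libraries. Within ECKO, replicate 2 was the highest for Sdc1, Sdc2, Sdc4, Gpc3 and Sulf1 and the lowest for Vcan, Sdc3, Gpc4 and Gpc6. Within WT, replicate 2 was the highest library for 5 genes (Vcan, Sdc2, Sdc4, Gpc3 and Sulf1) and the lowest for 4 (Hspg2, Sdc1, Sdc3 and Gpc4). WT replicate 1 was the highest for Hspg2 and Sdc3 and the lowest for Vcan, Sdc2, Gpc3, Gpc6 and Sulf1. Several marker sums, in the same libraries, did not overlap between the groups. The sum of 9 mesothelial markers was 102 to 139 CPM in ECKO and 172 to 261 CPM in WT. A large part of it came from Krt8 (mean 31.5 CPM in ECKO and 67.2 CPM in WT) and Krt18 (21.3 and 47.4 CPM). Cholangiocytes and hepatocytes also express both genes. The sum of 8 cholangiocyte markers was 156 to 210 CPM in ECKO and 239 to 665 CPM in WT. For 7 monocyte markers it was 73.5 to 94.3 CPM in ECKO and 213 to 382 CPM in WT. WT replicate 3 was the highest WT library for Sdc1, Gpc4 and Gpc6 and for the stellate and the B and plasma cell sums. The hepatocyte and sinusoidal endothelial sums were highest in WT replicate 1. All other marker sums, among them the mesothelial, cholangiocyte and monocyte sums, were highest in WT replicate 2. Kupffer cell and macrophage markers (81.3 to 112 CPM in ECKO and 71.3 to 181 CPM in WT), T and NK cell markers (2.27 to 4.66 CPM in ECKO and 1.80 to 3.59 CPM in WT) and platelet and erythroid markers (20.4 to 24.6 CPM in ECKO and 22.4 to 26.0 CPM in WT) overlapped between the groups.

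Of the 21 stellate cell and fibroblast markers tested, 9 fell and 0 rose (16 lower and 0 higher at an unadjusted p under 0.05). DESeq2 called 16 lower and limma-voom 8. With 1 library left out, edgeR called 1 lower without ECKO replicate 1, 4 without ECKO replicate 2, ECKO replicate 3 or WT replicate 2, 2 without WT replicate 3 and 12 without WT replicate 1. Tcf21, a stellate cell transcription factor whose call held in all 6 of these fits, was at 8.75 ± 2.34 CPM in ECKO and 35.9 ± 1.18 CPM in WT (edgeR adjusted p = 0.00853, SD, n = 3 each). Cygb, the stellate cell globin, was at 13.6 ± 1.37 CPM in ECKO and 27.3 ± 0.107 CPM in WT (edgeR adjusted p = 0.00938, and 0.0509 without ECKO replicate 1). Mesothelial markers fell in 4 of 9 cases, including the keratin genes Krt8 and Krt18, which cholangiocytes and hepatocytes also express (edgeR adjusted p = 0.0121 and 0.0239). Krt8 missed the threshold without ECKO replicate 1 or WT replicate 3 (0.0545 to 0.0686), and Krt18 without ECKO replicates 1 or 2 or WT replicate 3 (up to 0.0990). The mesothelial count was 0 without ECKO replicate 1 or WT replicate 3, 2 without ECKO replicate 2, ECKO replicate 3 or WT replicate 2, and 2 with limma-voom. B and plasma cell markers fell in 4 of 7, among them Jchain and Cd79a (edgeR adjusted p = 0.0314 and 0.0358, both lost without any 1 library other than WT replicate 1, with values up to 0.115 and 0.126). Jchain was at 0.615 ± 0.259 CPM in ECKO and 2.95 ± 0.804 CPM in WT, and Cd79a at 0.771 ± 0.316 and 4.24 ± 1.75 CPM. Both passed the filter on low counts only through WT, since ECKO replicate 2, with 6 and 7 counts, was under the minimum of 0.545 CPM. The number of B and plasma cell markers called lower was 7 without WT replicate 1, 0 without any other library and 0 with limma-voom. Of the sinusoidal endothelial markers, Pecam1 rose, at 1615 ± 141 CPM in ECKO and 1133 ± 47.2 CPM in WT (log2 fold change 0.51, edgeR adjusted p = 0.0456, up to 0.164 and never passing with a library left out), and the other 14, with Oit3 next (log2 fold change 0.39, adjusted p = 0.0850), did not pass. With library totals the log2 fold change of Pecam1 was 0.28 (edgeR adjusted p = 0.378) and the median of the 15 markers was -0.01, against 0.24 with TMM scaling. At an unadjusted edgeR p under 0.05, 7 of the 15 were higher and 0 lower with TMM scaling, beside 10.4% higher of all genes tested. With library totals, 0 of the 15 were higher and 1 lower at that cutoff. DESeq2 called 4 of the 15 higher and limma-voom 0. Of 13 hepatocyte markers, Cyp3a11 fell, at 2.43 ± 1.11 CPM in ECKO and 13.4 ± 0.895 CPM in WT (edgeR adjusted p = 0.00963, and 0.0589 without ECKO replicate 1), while the hepatocyte transcription factor gene Hnf4a had a log2 fold change of 0.78 (adjusted p = 0.0929). The median log2 fold change of the 13 hepatocyte markers was 0.43, with 2 higher and 1 lower at an unadjusted p under 0.05. Among them DESeq2 called 2 higher and 1 lower, and limma-voom 0 higher and 1 lower. No Kupffer cell or macrophage marker passed among 11 (1 higher and 3 lower at an unadjusted p under 0.05, 1 higher and 2 lower by DESeq2, 0 by limma-voom), with Clec4f at a log2 fold change of 1.26 and Cd68 at -1.09 (edgeR adjusted p = 0.0711 and 0.0978). Of 5 monocyte markers, 1 fell, the fibronectin gene Fn1 (edgeR adjusted p = 0.0141), which many cell types express and which made up most of that sum. Of 5 platelet and erythroid markers, 1 rose, the heme synthesis gene Alas2 (edgeR adjusted p = 0.0108), and both genes, Fn1 and Alas2, named after their values were seen, missed the threshold without ECKO replicate 1 (0.0686 and 0.0592). The median log2 fold change of the 5 platelet and erythroid markers was -0.41, with 1 higher and 2 lower at an unadjusted p under 0.05. Among them DESeq2 called 1 higher and 2 lower, and limma-voom 1 higher and 0 lower. The 1 tested T and NK cell marker did not pass. Of 7 cholangiocyte markers, 0 passed with edgeR or limma-voom, 7 were lower at an unadjusted p under 0.05, and DESeq2 called 5 lower. No marker list had a gene at 0 in all 6 libraries. The part of these cell types in the values of the proteoglycan genes was not tested.

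**Figure D4:**
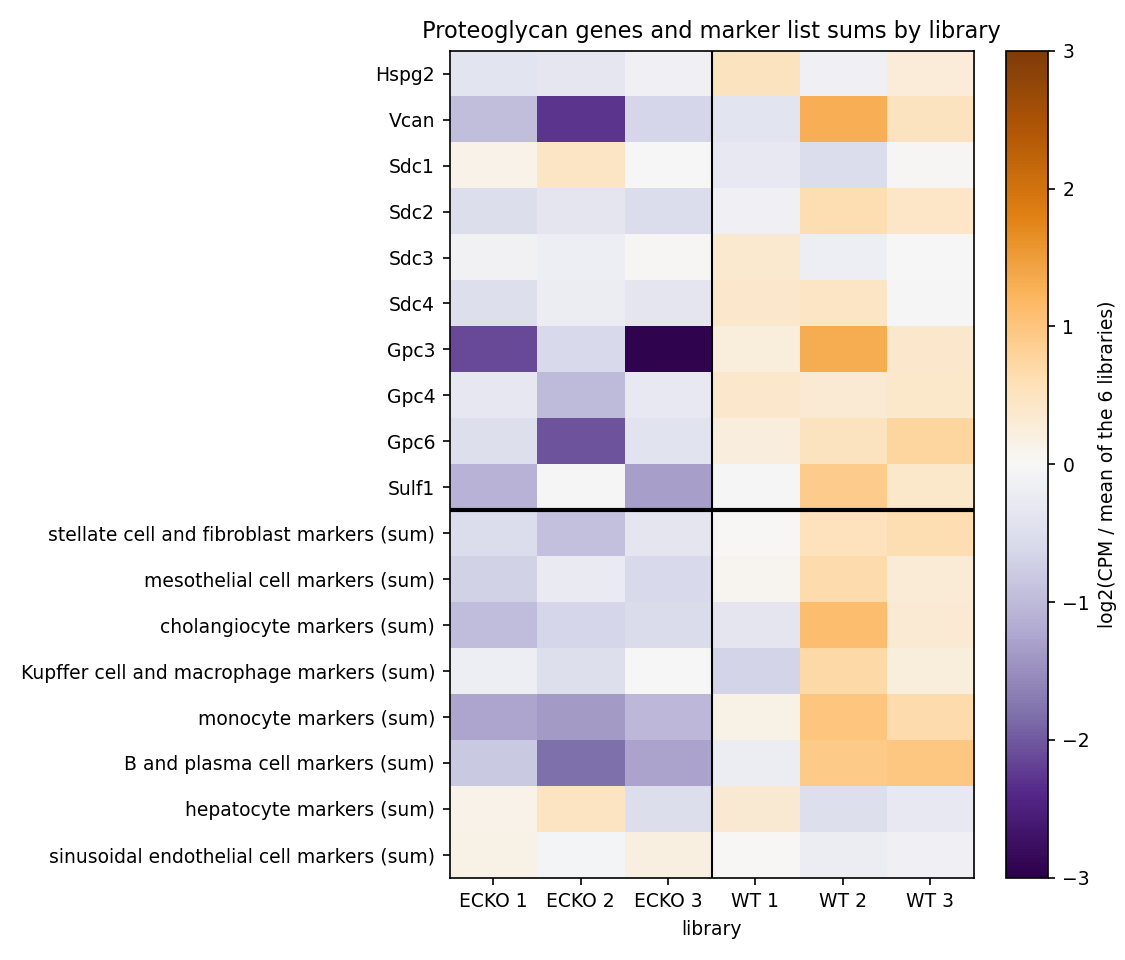
Log2 of each library's CPM over the mean of the 6 libraries (colour) for the 10 genes, above the line, and for the summed CPM of 8 marker lists, below it, with ECKO libraries left of WT libraries. Gpc3, Vcan and Gpc6 show the lowest ECKO values, and Sdc1 and the sinusoidal endothelial sum are near or above the mean in ECKO. The largest values shown are those of Vcan, Gpc3 and the cholangiocyte sum in WT replicate 2.

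Other proteoglycan core proteins, outside the 10, were followed in a list of 21 genes, of which 12 could be tested. The list also holds Smoc2, a SPARC-related matrix protein, which the counts below include. Of these, 5 fell, 0 rose and 7 did not pass (8 lower and 0 higher at an unadjusted p under 0.05), with a median log2 fold change of -1.0 beside 0.01 over all genes. Cd44, the hyaluronan receptor, was at 2.09 ± 0.452 CPM in ECKO and 8.49 ± 2.95 CPM in WT (log2 fold change -2.02, SE 0.31, edgeR adjusted p = 0.0212). Smoc2, a calcium-binding matrix protein related to SPARC, was at 5.18 ± 0.500 CPM in ECKO and 13.2 ± 3.26 CPM in WT (-1.35, SE 0.22, edgeR adjusted p = 0.0241). Prg4, the lubricant lubricin, had 3, 22 and 13 counts in ECKO replicates 1 to 3 and 108, 146 and 96 in WT replicates 1 to 3. Its log2 fold change was -2.78 (SE 0.53, edgeR adjusted p = 0.0345). Prg4 passed the filter on low counts only through WT, since ECKO replicate 1 was under the minimum of 0.545 CPM. Col15a1 and Col18a1, basement membrane collagens that carry sugar chains, had log2 fold changes of -2.84 and -0.83 (SE 0.54 and 0.18, edgeR adjusted p = 0.0373 and 0.0462), the second named after its value was seen. Cd44 passed without WT replicates 1 or 2 only, and the other 4 without WT replicate 1 only, with adjusted p up to 0.138 without another library. Limma-voom called 1 of the 12 lower and 0 higher, and DESeq2 7 lower and 0 higher. The part of the stellate cell and fibroblast markers in these values was not tested.

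Enzymes that build the linker and heparan sulfate showed 0 calls in either direction among 24 tested genes of 33 listed. EdgeR held 7 lower and 1 higher at an unadjusted p under 0.05, DESeq2 called 2 lower and 0 higher, and limma-voom called 0. Their median log2 fold change was -0.05. Genes that edit or break down heparan sulfate, such as heparanase and the lysosomal enzymes of its degradation, also showed 0 calls among 12 tested of 13 listed, with 1 higher and 0 lower at an unadjusted p under 0.05 and 0 calls by DESeq2 or limma-voom. Among 15 tested genes of chondroitin and dermatan sulfate synthesis of 16 listed, Chst7, a chondroitin 6-sulfotransferase, rose, Chpf, a chondroitin polymerizing factor, fell, and 13 did not pass. Chst7 was at 87.8 ± 3.95 CPM in ECKO and 65.0 ± 1.81 CPM in WT (log2 fold change 0.44, SE 0.09, edgeR adjusted p = 0.0390), and Chpf at 4.05 ± 0.323 CPM in ECKO and 8.40 ± 2.02 CPM in WT (-1.05, SE 0.23, edgeR adjusted p = 0.0493). Chst7 missed the threshold without any 1 of the 6 libraries (up to 0.142) and Chpf without any but WT replicate 1 (up to 0.176), and limma-voom called neither. With library totals the log2 fold change of Chst7 was 0.19 (edgeR adjusted p = 0.478) and on FPKM with pseudocounts 0.1 and 1 it was 0.20 and 0.19 (limma adjusted p = 0.478 and 0.475), so the call did not hold on these scales.

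Of 14 tested partners of hyaluronan and versican (24 listed), Fbn1 and Tnc fell and 12 did not pass, with a median of -0.11, which was 0.06 without WT replicate 1. At an unadjusted p under 0.05, 4 were lower and 1 higher, DESeq2 called 4 lower and 1 higher, and limma-voom called 1 lower and 0 higher, with Tnc at an adjusted p of 0.0587. Fbn1, the microfibril protein fibrillin 1, was at 30.5 ± 0.140 CPM in ECKO and 69.2 ± 16.2 CPM in WT (log2 fold change -1.18, SE 0.17, edgeR adjusted p = 0.0178). Tnc, the versican ligand tenascin C, was at 2.48 ± 0.684 CPM in ECKO and 12.4 ± 4.59 CPM in WT (-2.32, SE 0.35, edgeR adjusted p = 0.0197). Both passed without WT replicates 1 or 2 and missed without any other library (up to 0.0902). Of 19 tested genes for the cleavage, shedding and cytoplasmic binding of core proteins (22 listed), 3 fell, 0 rose and 16 did not pass (8 lower and 0 higher at an unadjusted p under 0.05, and 3 lower by limma-voom and 7 by DESeq2, with 0 higher by either), with a median of -0.62. Adamts5, a protease that cuts versican and aggrecan, was at 4.35 ± 0.554 CPM in ECKO and 17.1 ± 3.67 CPM in WT (-1.97, SE 0.21, edgeR adjusted p = 0.00938). Bmp1, a procollagen proteinase that also cuts perlecan, was at 5.53 ± 0.556 CPM in ECKO and 21.0 ± 5.10 CPM in WT (-1.93, SE 0.21, edgeR adjusted p = 0.00938). Mmp2, a gelatinase of stromal cells, had a log2 fold change of -3.19 (SE 0.40, edgeR adjusted p = 0.0153). Adamts5 and Bmp1 missed the threshold without ECKO replicate 1 alone (0.0509 for both), and Mmp2 without each ECKO replicate (up to 0.0775).

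**Figure D5:**
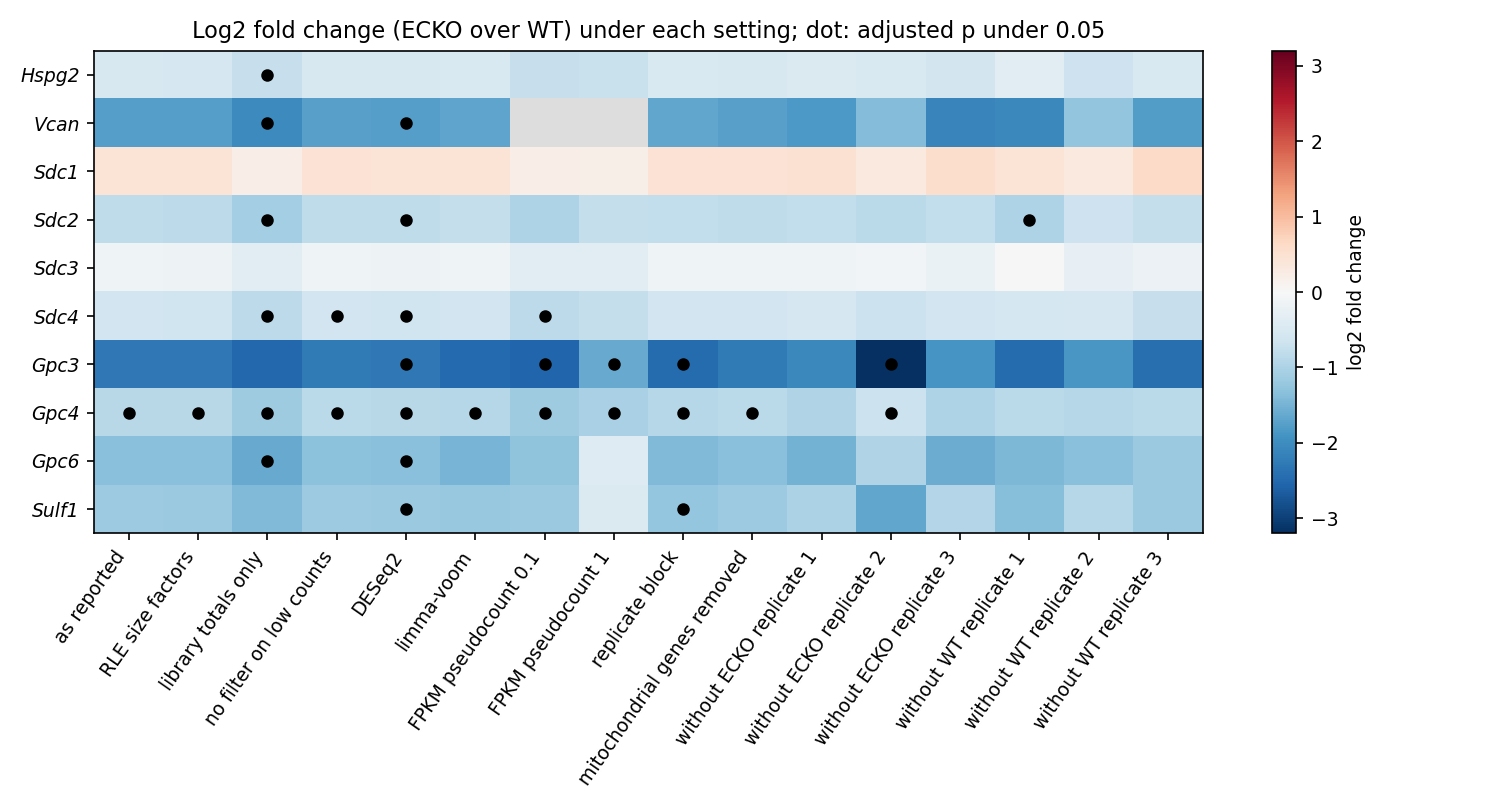
Log2 fold change of ECKO over WT (colour) for each of the 10 genes (rows) as reported and under 15 other settings (columns), with a dot where the adjusted p was under 0.05 and grey where a gene was filtered out. Gpc4 carries a dot in every column except 5 of the 6 that leave out a library, DESeq2 carries 7 dots and scaling by library totals 6, and Sdc1 carries none.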

How the data were processed

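Messenger RNA of 6 LSEC libraries was sequenced. The submitters' processing notes name the builds mm10 and GRCm38.p4 and the tools HISAT2 2.0.4 and StringTie 1.3.0, without their roles. The counting tool and strand setting used are unknown: not given in the sources read. Per the file headers, the authors deposited unscaled counts for each gene and library. Per the file headers, they also deposited FPKM, scaled by gene length and library total: the lengths that FPKM and counts imply differed by at most 3.43e-06 (relative) between 2 libraries over 7827 genes with over 200 counts. Columns left out numbered 0. All 10 gene identifiers matched GENCODE.

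Counts were tested in R 4.3.3 with edgeR 4.0.16: filterByExpr (minimum count 10, minimum total 15), TMM scaling, robust quasi-likelihood F-test with genotype as the only term, two-sided, Benjamini-Hochberg adjustment over all 13692 genes and a threshold of 0.05. SE is the absolute log2 fold change over the square root of F. Alternatives used DESeq2 1.42.0 and limma 3.58.1, the latter also on log2 of FPKM plus 0.1 or 1. The fitting procedure was checked on simulated counts. It recovered 52% and 60% of genes simulated at log2 fold changes of -1 and 1, and 88% and 94% at -2 and 2. Of its 161 calls, 14 were false, a larger share than the threshold of 0.05. The simulated libraries shared 1 mean profile apart from the changed genes, with as many genes raised as lowered. In these data 69.2% of calls were lower, so the simulated rates may not hold for them. Library totals set the counting precision: a count of 0 in a library allows up to 3 counts, 0.124 to 0.200 CPM, counting error only.

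The 10 genes, the 6 pathway lists (129 genes) and 10 marker lists (106 genes, 2 of them also on a pathway list) were chosen with earlier results of these data known. Named were the 10 genes, up to 4 genes per pathway list that passed, smallest p first, and up to 2 markers with the smallest p from 6 marker lists. Promoter sequences are RefSeq's on GRCm38.p6.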

Additional observations from a re-analysis of the deposited data

How the results depend on the processing

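Over the 15 other settings, 123 of 148 fold changes of the 10 genes kept their sign and side of the threshold, 19 newly passed, 5 no longer passed (all Gpc4 with a library left out) and 1 reversed, Sdc3, which was at 0.02 without WT replicate 1 (-0.266 to 0.0248 with each library left out in turn). Vcan was under the FPKM minimum of 0.1 and has no value there. The count of the 10 genes called lower, 1 as reported, was 6 with library totals, 7 with DESeq2, 2 without the filter on low counts, 3 and 2 on FPKM with pseudocounts 0.1 and 1, 3 with the replicate block (Gpc3, Gpc4 and Sulf1) and 0 to 2 with a library left out. The labels give no pairing, and deviations of same-numbered libraries correlated at 0.09, 0.15 and -0.05. The count called higher was 0 throughout. Over all genes, 170 were called higher and 382 lower (69.2% of calls). Library totals gave 63 and 1209 (95% lower), where the median of all genes moved to -0.22 and the median of the 10 genes stood -0.87 from it, against -0.86 as reported. DESeq2 gave 451 and 1033, limma-voom 200 lower, and FPKM 47 and 38 higher for pseudocounts 0.1 and 1 (92.3% and 91.9% of calls lower). Genes called lower were 1209 of 13692 tested with library totals, 505 of 20082 without the filter on low counts and 285 of 13692 with the replicate block. On FPKM with pseudocounts 0.1 and 1 they were 565 and 432 of 14720 tested. Leaving out a library gave 14 to 246 higher and 21 to 766 lower. The total was 1012 without WT replicate 1 and 35 without ECKO replicate 1, beside 552 as reported. The Sdc4 share of syndecans differed by -6.91 to -2.94 percentage points and the Gpc4 share of glypicans by 6.97 to 16.5 with a library left out. Depth limits Vcan most, with 5 to 16 counts in ECKO libraries.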

Other observations

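Ratios within a library, chosen after the values were seen, set the members against each other without any scaling between libraries. Of 4 ratios compared, none passed after Benjamini-Hochberg adjustment, and 3 libraries against 3 cannot give an exact p under 0.1. The FPKM ratio of Sdc1 over Sdc4 was 0.737, 0.752 and 0.614 in ECKO replicates 1 to 3 and 0.303, 0.244 and 0.505 in WT replicates 1 to 3, with no overlap (two-sided exact permutation p = 0.1, adjusted 0.2). Sdc1 over Sdc3 was 0.154, 0.203 and 0.126 in ECKO and 0.0839, 0.104 and 0.134 in WT, where ECKO replicate 3 lay below WT replicate 3 (exact permutation p = 0.2, adjusted 0.267). Hspg2 over Sdc3, the ratio of the leading matrix and leading membrane member, was 1.37, 1.48 and 1.49 in ECKO and 1.84, 1.73 and 2.01 in WT, with no overlap (exact permutation p = 0.1, adjusted 0.2). Gpc4 over Gpc3, the neighbours on chromosome X, was 15.8, 3.47 and 28.2 in ECKO and 5.07, 2.27 and 4.56 in WT, and here ECKO replicate 2 lay among the WT libraries (exact permutation p = 0.3, adjusted 0.3).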
